A study of Mus musculus with 27 samples.

Results

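The giant cadherins of the Celsr, Fat and Dachsous families were examined in the cortex of 5xFAD mice, which accumulate amyloid from human transgenes. The members are 8 genes of the 26264 in the deposited table, chosen by symbol alone, and they stand there in lower case as celsr1, celsr2, celsr3, fat1, fat2, fat3, fat4 and dchs1. All mice were female 5xFAD animals of 16 weeks that carried the same human transgenes under the neuronal Thy1 promoter, so every group, the controls included, has the amyloid background and no wild-type mouse is compared here. Each mouse received a stereotaxic injection into the cortex of 1 hemisphere with vehicle, R33 or R55, and a small block of cortex was taken from both the injected and the contralateral hemisphere 24 h later. R33 and R55 are thiophene thioureas that act as chaperones of the retromer complex, which returns cargo from endosomes to the cell surface and the Golgi apparatus; both were injected at 10 mM in the solvent mixture that served as vehicle. The data used here comprise 27 libraries from 14 mice: 8 libraries of 4 vehicle-treated mice, 9 of 5 R33-treated mice and 10 of 5 R55-treated mice. Mouse AE of the R33 group is represented by its injected hemisphere alone. Both compounds are compared with the same vehicle-treated mice.

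Giant cadherins are transmembrane proteins whose extracellular part is a very long chain of cadherin repeats, and they bind the same or a partner protein on the neighbouring cell. Celsr proteins, the mammalian relatives of Drosophila Flamingo, are core components of planar cell polarity and also adhesion G protein-coupled receptors, and in brain they are known for roles in axon tracts, dendrites, neuronal migration and ependymal cilia. Fat4 and Dchs1 form a receptor and ligand pair that bears on tissue polarity, growth through the Hippo pathway and the proliferation of neural precursors. Fat1 acts at actin-rich cell edges, Fat3 shapes the dendrites of amacrine and other neurons, and Fat2 is known from cerebellar granule neurons.

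The members share long transcripts and coding sequences. In GENCODE release M39 on GRCm39, the build to which the authors aligned, their canonical transcripts span 10754 (Dchs1) to 18760 bp (Fat3), and their coding sequences run from 8757 bp in Celsr2 to 14943 bp in Fat4. The longest exon of each member has at least 3080 bp. It is the first exon in Celsr1, Celsr2, Celsr3 and Fat4 and exon 10 in Fat1 and Fat2. In Fat3 (exon 26) and Dchs1 (exon 21) it is the last exon. Their genomic extents differ far more. Celsr2 (ENSMUSG00000068740) fills chr3:108298165-108323397 on the minus strand with 34 exons in 25.2 kb, and Celsr3 (ENSMUSG00000023473) fills chr9:108703519-108730168 on the plus strand with 36 exons in 26.6 kb. Fat3 (ENSMUSG00000074505), on chr9:15821485-16412581 of the minus strand, spreads 26 exons over 591.1 kb, so that 3.2% of the gene is exon against 44.1% in Celsr2. Dchs1 (chr7:105402197-105436861, minus strand) covers 34.7 kb, Fat2 (chr11:55141435-55227483, minus strand) 86.0 kb, Fat1 (chr8:45388302-45505294, plus strand) 117.0 kb, Fat4 (chr3:38941089-39066134, plus strand) 125.0 kb and Celsr1 (chr15:85783126-85918438, minus strand) 135.3 kb. Annotated non-coding RNAs on the opposite strand overlap exons of Celsr2, Celsr3, Fat1, Fat2, Fat4 and Dchs1, with the longest overlap at Fat4 (1233 bp, C230034O21Rik), and Trmu overlaps Celsr1 by 100 bp. The library kit marks strand, but whether counting used it is not given in the sources used here.

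The 200 bases before the annotated start of 4 members are shown because they contain both extremes of promoter composition in the family and the members that stood lowest after R55 among those tested. Capitals mark the GC box GGGCGG, searched on both strands with overlapping copies joined, and each sequence runs 5′ to 3′ towards the start. The windows are chr9:108703319-108703518 (plus strand) for Celsr3, chr7:105436862-105437061 (minus strand) for Dchs1, chr3:108323398-108323597 (minus strand) for Celsr2 and chr9:16412582-16412781 (minus strand) for Fat3, all on GRCm39.
Celsr3: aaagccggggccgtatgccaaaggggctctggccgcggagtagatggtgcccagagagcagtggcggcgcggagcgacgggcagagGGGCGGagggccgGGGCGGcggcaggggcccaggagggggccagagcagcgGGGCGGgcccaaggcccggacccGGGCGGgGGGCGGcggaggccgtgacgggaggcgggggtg
Dchs1: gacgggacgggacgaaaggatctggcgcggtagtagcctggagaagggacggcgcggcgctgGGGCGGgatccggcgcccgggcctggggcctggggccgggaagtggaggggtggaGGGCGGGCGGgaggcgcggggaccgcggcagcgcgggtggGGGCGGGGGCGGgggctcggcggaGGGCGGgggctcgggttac
Celsr2: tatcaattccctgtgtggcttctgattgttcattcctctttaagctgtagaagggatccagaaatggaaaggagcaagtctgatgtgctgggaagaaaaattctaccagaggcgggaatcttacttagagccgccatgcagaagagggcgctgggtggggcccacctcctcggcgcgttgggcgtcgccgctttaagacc
Fat3: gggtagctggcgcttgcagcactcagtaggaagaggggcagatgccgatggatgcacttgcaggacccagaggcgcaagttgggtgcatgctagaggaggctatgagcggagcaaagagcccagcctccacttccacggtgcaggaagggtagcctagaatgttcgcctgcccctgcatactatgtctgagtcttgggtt
The window of Dchs1 has 28 CpG dinucleotides and that of Celsr3 has 23, whereas Celsr2 has 9 and Fat3 has 6, against a median of 7 over 21770 protein-coding genes. GC boxes were found in Dchs1 (6), Celsr3 (5) and Celsr1 (3), and none in the windows of Celsr2, Fat1, Fat2, Fat3 and Fat4. Over all windows of the same length, 34.8% hold a GC box. No member has the CCAAT box (CCAAT, found in 32.3% of all windows), the TATA box (TATAAA, 9.6%) or the palindromic E-box (CACGTG, 5.4%) in its window. These are matches of letters only.

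Between 15932196 and 38077026 fragments per library fell on genes. Levels are given in FPKM, fragments scaled to gene length and to library depth, and comparison between genes is approximate. Values shifted with transcript length between treatment groups, as given below. Whether counting used strand is also unknown, as given above. Celsr2 dominated the family, with 25.9 ± 4.46 FPKM (SD over 14 mice) and 64.7% of the summed FPKM of the 8 members. Its lowest mouse (17.3 FPKM) was above the highest mouse of every other member. Celsr3 followed with 5.24 ± 0.590 FPKM, then Fat3 with 2.92 ± 0.816, Fat1 with 2.71 ± 0.679, Dchs1 with 1.35 ± 0.256, Celsr1 with 0.908 ± 0.155 and Fat4 with 0.815 ± 0.256 FPKM. Each of these neighbours in the order, from Celsr3 down to Fat4, overlapped the next in its range over mice. Fat2 was close to absent at 0.0539 ± 0.0637 FPKM, and its highest mouse was below the lowest mouse of Fat4. Because the transcripts are long, even modest FPKM rest on many fragments: Fat4 had 213 to 720 fragments per library, Celsr1 108 to 391 and Fat3 871 to 4083, while Fat2 had 0 to 120 with a median of 9.

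Tests were made with limma on log2(FPKM + 1), with treatment and hemisphere as factors, and p-values were adjusted by Benjamini-Hochberg over every gene tested. Celsr2, Celsr3, Fat1, Fat3 and Dchs1 passed the filter of a mean of at least 1 FPKM and were tested among 12976 genes. Celsr1, Fat4 and Fat2 fell below it, and their values come from the same fit without the filter over 22013 genes. A log2 fold change on this scale understates the change of genes near or below 1 FPKM. In these blocks of tissue, fewer cells of a type and less RNA per cell cannot be told apart.

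All 8 members had lower fitted values after R55 than after vehicle, but no member passed an adjusted p-value of 0.05. The lowest were Fat3, Celsr2 and Fat1. Of the 12976 genes 0.00771% did, and 0% of 22013 without the filter. By the unadjusted p-value, 3 of the 5 tested members (Fat3, Celsr2 and Fat1) were lower under 0.05 and 0 were higher, beside 3.74% of all tested genes lower and 4.71% higher. The median log2 fold change of these 5 members was -0.36, against 0.026 over all tested genes. Most other long transcripts were lower too, as given below. The count of 3 of 5 was 1 in the injected hemisphere alone, beside 73 of 12976 genes lower. With the trend with transcript length removed it was 2, beside 468 genes lower. With the mouse as a replicate block in addition it was 1, beside 201. It was 4 without R33-treated mouse AD, beside 688 genes lower, and 4 with vehicle- and R55-treated mice alone, beside 597. Without the filter the median over the 8 members was -0.20, and 44.6% of the 22013 genes had values below 0. There 4 members were lower by an unadjusted p-value under 0.05, Fat4 being added, against 3.49% of those genes. Without vehicle-treated mouse J that count was 2, and 7 of the 8 members were below 0. Celsr2, Fat3 and Fat4 belong to the genes drawn as changed in the study's own figures of these mice, so their direction here is not independent evidence.

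Celsr2, which is expressed by many kinds of neurons and by ependymal cells, measured 25.5, 29.8, 36.0 and 31.3 FPKM in vehicle-treated mice J, M, L and AH, each the mean of its hemispheres. R55-treated mice P, AA, Q, R and AB measured 24.4, 23.3, 22.8, 23.4 and 23.1 FPKM. R33-treated mice K, AE, O, N and AD measured 24.6, 26.8, 26.8, 27.2 and 17.3 FPKM. All R55-treated mice lay below the lowest vehicle-treated mouse, which was only slightly higher. In these means over both hemispheres, but not in separate libraries, the R55-treated mice were far more alike than the other groups. The mean was 30.7 ± 4.35 FPKM after vehicle (SD, n = 4 mice) and 23.4 ± 0.612 FPKM after R55 (n = 5), 0.764 times the vehicle mean, with a log2 fold change of -0.37 (SE 0.12, adjusted p = 0.514, limma). Of all tested genes, 1.41% had every R55-treated mouse below every vehicle-treated mouse. With the R33-treated mouse AD left out of the fit, the log2 fold change was again -0.37 and Celsr2 passed with an adjusted p of 0.0442 in limma. That fit called 50 of the 12976 genes, and without the filter it called 30 of 22013 genes and 0 of the 8 members. The smaller SE of 0.083 in that fit comes from the spread that all groups share, since no vehicle- or R55-treated mouse was removed. A fit of vehicle- and R55-treated mice alone, which also lacks AD, gave Celsr2 an adjusted p of 0.156 in limma. With all mice the adjusted p was 0.900 with the mouse as a replicate block and 0.918 with 1 value per mouse. For this comparison neither was run without AD.

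The separate libraries of Celsr2 show where its spread lies. In the contralateral hemisphere the vehicle libraries held 22.8 (J), 30.7 (M), 40.2 (L) and 32.8 FPKM (AH), and the R55 libraries 24.3 (P), 23.5 (AA), 17.8 (Q), 23.2 (R) and 19.0 FPKM (AB). In the injected hemisphere the vehicle libraries held 28.2 (J), 28.9 (M), 31.8 (L) and 29.9 FPKM (AH), and the R55 libraries 24.5 (P), 23.2 (AA), 27.8 (Q), 23.5 (R) and 27.2 FPKM (AB). On the contralateral side the vehicle library of mouse J lay among the R55 libraries. In the injected hemisphere the highest R55 library (27.8 FPKM) was just below the lowest vehicle library (28.2 FPKM). How many of all genes are so placed in that hemisphere was not counted. The fit of that hemisphere alone gave Celsr2 a log2 fold change of -0.23 (SE 0.17, unadjusted p = 0.20, limma). Within the small R55 group, Q and AB were the lowest contralateral libraries and the highest injected ones, which the means over both hemispheres hide. Over injected libraries the SD was 2.14 FPKM after R55, 1.59 after vehicle and 6.25 after R33. Over contralateral libraries it was 2.93, 7.16 and 2.96 FPKM in the same order.

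Fat3, the member with the largest genomic span, measured 2.79, 3.44, 4.91 and 3.70 FPKM in vehicle-treated mice J, M, L and AH. It measured 2.26, 2.70, 1.84, 2.35 and 2.61 FPKM in R55-treated mice P, AA, Q, R and AB, all below the lowest vehicle-treated mouse. As given above, 1.41% of all tested genes were so placed. The share among long genes alone was not counted. In R33-treated mice K, AE, O, N and AD it measured 2.82, 2.78, 3.47, 3.43 and 1.85 FPKM, within or below the vehicle range. The R55 mean of 2.35 ± 0.340 FPKM was 0.634 times the vehicle mean of 3.71 ± 0.886 FPKM, with a log2 fold change of -0.47 (SE 0.12, adjusted p = 0.259, limma), the smallest adjusted p of any member. In the contralateral hemisphere vehicle libraries ran from 2.27 (J) to 5.74 FPKM (L) and R55 libraries from 1.48 (Q) to 2.98 FPKM (AA), so the groups overlapped. In the injected hemisphere vehicle libraries ran from 3.06 (M) to 4.07 FPKM (L) and R55 libraries from 2.17 (R) to 3.03 FPKM (AB), just below them. How many of all genes are so placed in the injected hemisphere was not counted. The fit of that hemisphere alone gave Fat3 a log2 fold change of -0.40 (SE 0.15, unadjusted p = 0.018, limma).

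Fat1, a regulator of actin at cell edges and contacts, measured 3.63, 2.80, 3.08 and 3.22 FPKM in vehicle-treated mice J, M, L and AH. It measured 2.30, 2.04, 2.16, 2.85 and 2.04 FPKM in R55-treated mice P, AA, Q, R and AB. Only R55-treated mouse R exceeded the lowest vehicle-treated mouse. The R55 mean was 0.716 times the vehicle mean (2.28 ± 0.337 against 3.18 ± 0.346 FPKM), with a log2 fold change of -0.36 (SE 0.13, adjusted p = 0.552, limma).

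Fat4, the receptor of the Fat4 and Dchs1 pair, measured 1.46, 1.14, 0.719 and 0.747 FPKM in vehicle-treated mice J, M, L and AH and 0.694, 0.694, 0.712, 0.642 and 0.625 FPKM in R55-treated mice P, AA, Q, R and AB. The R55-treated mice were all below the vehicle-treated mice, but L and AH were barely above them, and the vehicle mean of 1.02 ± 0.354 FPKM rests on J and M. How many genes are so placed without the filter was not counted. The ratio of means was 0.661, and the log2 fold change was -0.26 on the scale with 1 added (SE 0.092, adjusted p = 0.652, limma without the filter). On recovered fragments, where no constant is added to FPKM, the log2 fold change of Fat4 was -0.53 (SE 0.19, adjusted p = 0.597, limma voom). Dchs1, its ligand, measured 1.70, 1.38, 1.32 and 1.56 FPKM in the vehicle-treated mice and 1.42, 1.20, 1.32, 1.09 and 1.18 FPKM in the R55-treated mice in the same order. The groups of Dchs1 overlapped, with a log2 fold change of -0.15 (SE 0.088, adjusted p = 0.607, limma), and of -0.27 (SE 0.15, adjusted p = 0.657) with limma voom on fragments. Fat4 and Dchs1 were not tested against each other.

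The other Celsr genes stood closer to the controls. Celsr3, a neuronal Celsr needed for major axon tracts, measured 5.33, 5.97, 6.17 and 5.67 FPKM in vehicle-treated mice J, M, L and AH and 5.03, 5.77, 4.78, 5.37 and 5.23 FPKM in R55-treated mice P, AA, Q, R and AB. Its groups overlapped, and its log2 fold change was -0.13 (SE 0.079, adjusted p = 0.622, limma). Celsr1, known from planar polarity in epithelia and neural precursors, had a log2 fold change of -0.082 (SE 0.072, adjusted p = 0.773, limma without the filter), with vehicle-treated mice from 0.873 to 1.16 FPKM and R55-treated mice from 0.782 to 0.998 FPKM.

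**Figure D1:**
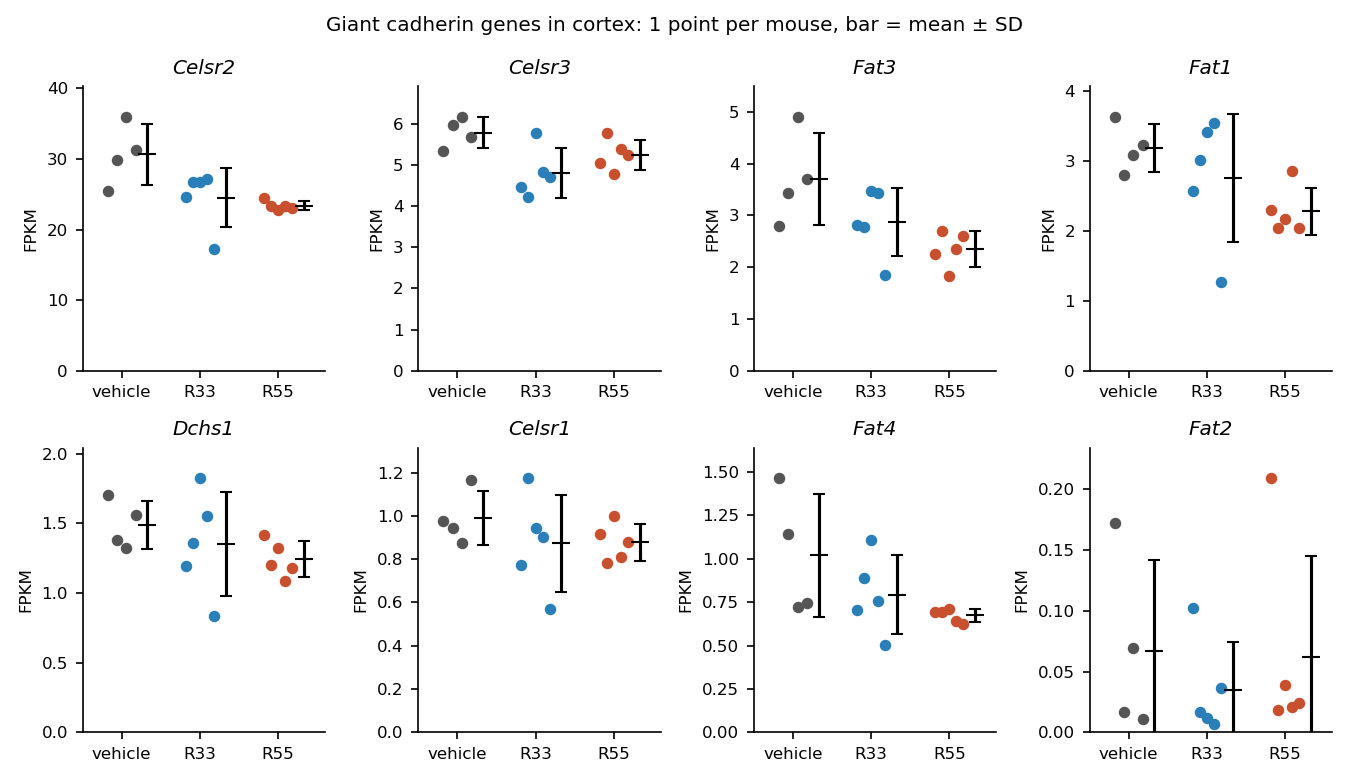
FPKM of the 8 members in each mouse (mean of its hemispheres), by treatment, on a linear axis from 0 for each gene; black bars are mean ± SD over 4 vehicle-, 5 R33- and 5 R55-treated mice, and the lower bar of Fat2 is cut at 0. All R55-treated points of Celsr2, Fat3 and Fat4 lie below the vehicle points, and the lowest R33 point of Celsr2 (17.3 FPKM) is mouse AD. Of the genes tested with the filter, which leave out Fat4, 1.41% had every R55-treated mouse below every vehicle-treated mouse.

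R33 gave lower fitted values than vehicle in all 8 members as well, beside 45.4% of genes without the filter and 42.5% with it, and no member passed. Of the 12976 genes 0% passed in limma, and 0.00454% did without the filter. By an unadjusted p-value under 0.05, 2.68% of tested genes were lower and 3.19% higher, and the members among the lower were Celsr2, Celsr3 and Fat3 (3 of 5). Without the filter they were again 3, of 8, beside 2.51% of genes. The count of 3 of 5 was 1 with the mouse as a replicate block and 2 with 1 value per mouse. It was 0 in the injected hemisphere alone, 0 in the mice labelled with 1 letter and 1 with the trend with transcript length removed. It was 1 without vehicle-treated mouse L and 5 without R33-treated mouse O. Celsr2 had a log2 fold change of -0.34 (SE 0.12, adjusted p = 0.834, limma), Fat3 of -0.29 (SE 0.13, adjusted p = 0.834) and Celsr3 of -0.21 (SE 0.081, adjusted p = 0.834). For Celsr3 the R33-treated mice K, AE, O, N and AD measured 4.47, 4.22, 5.78, 4.83 and 4.71 FPKM, 4 of them below the lowest vehicle-treated mouse. For Fat1 the log2 fold change was -0.22 (SE 0.14), for Dchs1 -0.10 (SE 0.090), for Fat4 -0.18 (SE 0.094), for Celsr1 -0.12 (SE 0.074) and for Fat2 -0.036 (SE 0.048).

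Mouse AD carried most of the R33 difference of Fat1 and Dchs1, part of that of Celsr2 and Fat3 and little of that of Celsr3. In its injected hemisphere Celsr1 (0.332 FPKM), Celsr2 (13.2 FPKM), Fat1 (1.07 FPKM) and Dchs1 (0.695 FPKM) had their lowest value of the 27 libraries, where the other 26 ran from 0.622 to 1.23, 17.8 to 40.2, 1.47 to 4.21 and 0.960 to 2.23 FPKM. Its Celsr3 (4.14 FPKM) and Fat3 (2.003 FPKM) were each among the 3 lowest, and so was its Fat4 (0.493 FPKM). The summed FPKM of 8 markers of mural cells and fibroblasts, 82.4 in that library, was above all others (32.8 to 78.3), and the summed neuronal markers were also highest there (6921 against 4323 to 6833), as were those of red blood cells (8.17 against 1.003 to 5.71), where Alas2 is the only marker not listed at 0. Their part in the low member values was not tested. Without mouse AD, the log2 fold change of R33 against vehicle was -0.21 for Celsr2, -0.20 for Celsr3, -0.17 for Fat3, -0.030 for Fat1 and -0.0055 for Dchs1.

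R55 and R33 were compared with each other at the same concentration and time, the only pair of compounds in the series. No member passed in limma, nor did any gene (0%). By an unadjusted p-value under 0.05, 0 of the 5 tested members stood apart, beside 0.416% of genes lower and 0.732% higher after R55. The log2 difference of R55 minus R33 was -0.19 for Fat3 (95% interval -0.43 to 0.061), -0.14 for Fat1 (-0.41 to 0.12), -0.051 for Dchs1 (-0.23 to 0.12), -0.029 for Celsr2 (-0.26 to 0.20) and 0.079 for Celsr3 (-0.078 to 0.24). For the genes under the filter it was -0.077 for Fat4 (-0.26 to 0.11), 0.034 for Celsr1 (-0.11 to 0.18) and 0.030 for Fat2 (-0.065 to 0.12). A p that misses the threshold does not show that the compounds act alike. Without mouse AD the differences were -0.33 for Fat1 (adjusted p = 0.379, limma), -0.30 for Fat3 (adjusted p = 0.436) and -0.16 for Celsr2 (adjusted p = 0.514). In that fit 2 of the 5 members, Fat1 and Fat3, were lower by an unadjusted p-value under 0.05, and 2 of 12976 genes and 0 members passed after adjustment.

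**Figure D2:**
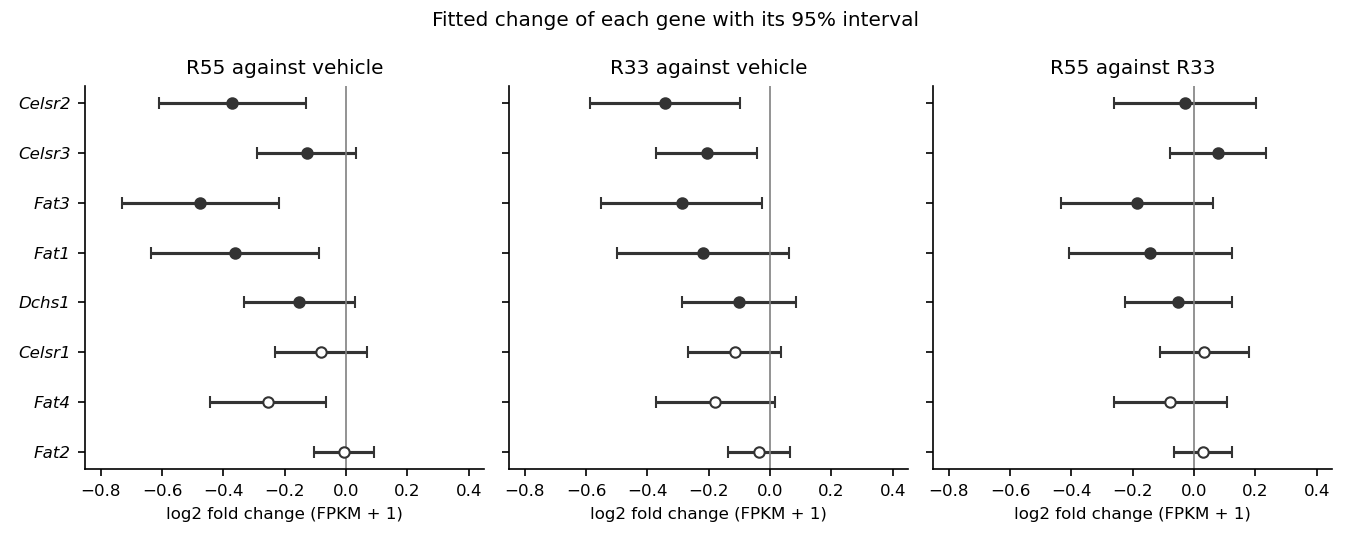
Log2 fold changes on the FPKM + 1 scale with 95% intervals from limma, for R55 against vehicle, R33 against vehicle and R55 against R33; filled points are genes tested above the filter, open points come from the fit without it. Points of R55 against vehicle run from -0.47 (Fat3) to -0.0066 (Fat2), and every interval of R55 against R33 includes 0.

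The lower values were shared with other long transcripts. The authors' gene lengths, recovered from the table, were 10628 (Celsr2) to 18676 bp (Fat3) for the members. Among the tested genes of 10000 bp or more that are no members (324), the median log2 fold change of R55 against vehicle was -0.19, with quartiles at -0.27 and -0.10, and 95.1% were below 0. Over the 881 genes shorter than 1000 bp the median was 0.11. For R33 against vehicle the long genes had a median of -0.14, with 91.0% below 0. Against the long genes in R55 against vehicle, Fat3, Celsr2 and Fat1 lay below the lower quartile, and Celsr3 and Dchs1 lay between the quartiles.

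When the trend of values with transcript length was removed from each library, the 5 tested members moved up, towards 0 or past it. Celsr2 kept a log2 fold change of -0.21 (SE 0.072, adjusted p = 0.734, limma) for R55 against vehicle and -0.22 (SE 0.074, adjusted p = 0.916) for R33 against vehicle. Fat3 stood at -0.19 (SE 0.092) for R55 and -0.070 (SE 0.095) for R33, and Fat1 at -0.13 (SE 0.090) and -0.040 (SE 0.092). Celsr3 turned to 0.055 (SE 0.075) and Dchs1 to 0.0056 (SE 0.074) for R55. For R33 Celsr3 went from -0.21 to -0.064 (SE 0.077) and Dchs1 from -0.10 to 0.024 (SE 0.076). The median of the 5 members was -0.13 for R55 and -0.064 for R33. In the fit without the filter, Fat4 stood at -0.078 (SE 0.085) and Celsr1 turned to 0.042 (SE 0.067) for R55.

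**Figure D3:**
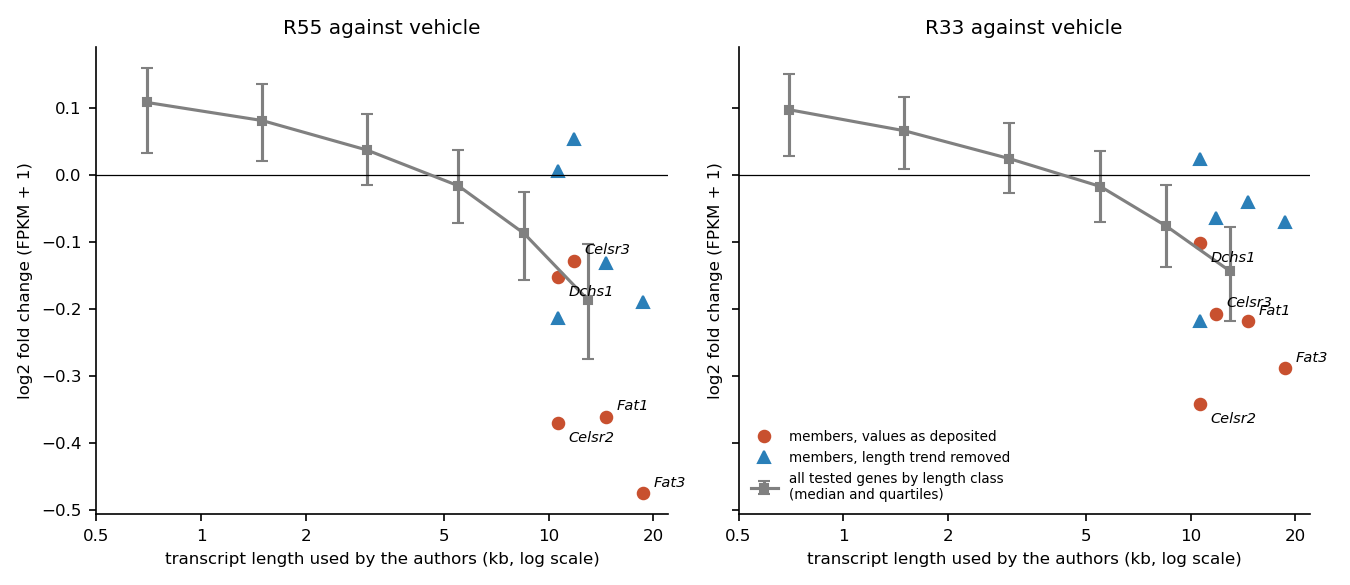
Log2 fold change on the FPKM + 1 scale against transcript length (log axis) for R55 and R33 against vehicle; grey squares are medians with quartiles of all tested genes in 6 length classes, placed inside each class, orange points are the 5 tested members and blue triangles the same members after the length trend was removed. In R55 against vehicle the class medians fall from 0.11 under 1000 bp to -0.19 from 10000 bp, and Celsr2 moves from -0.37 to -0.21 with the trend removed.

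No member passed between injected and contralateral hemispheres. Of 13 mice with both, the injected side was lower in 11 for Celsr3, with a mean difference of -0.13 ± 0.27 (SD) on the log2(FPKM + 1) scale, the exceptions being R33-treated mouse O and R55-treated mouse Q. At least that many mice lower on the injected side was seen in 1.44% of all tested genes. The fitted difference for Celsr3 was -0.13 (SE 0.064, adjusted p = 0.9999, limma), and -0.13 (adjusted p = 0.852) with the mouse as a replicate block. Without the block it was the only one of the 5 tested members below an unadjusted p-value of 0.05 in limma, and with it 0 members were. The same was lost when any of the mice J, L, AH, AE, N, AD, AA or R was left out. Without the block this stands beside 2.01% of all tested genes lower and 1.46% higher, and 0% passed after adjustment. The injected side was higher in 8 of 13 mice for Fat3, 7 for Fat1 and Celsr2, 6 for Dchs1 and Fat4 and 4 for Celsr1. Mouse O had the largest excess on the injected side for Fat1, Fat3, Fat4 and Dchs1: Fat3 measured 4.54 FPKM in its injected and 2.41 in its contralateral library, and Fat1 4.21 and 2.61 FPKM. Mouse AD had the largest deficit on that side for Celsr1 and Celsr2.

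The R55 difference of the members was not shown to vary with hemisphere. In the contralateral hemisphere alone the log2 fold change of R55 against vehicle was -0.51 for Celsr2, -0.55 for Fat3 and -0.44 for Fat1, and in the injected hemisphere alone it was -0.23, -0.40 and -0.28. The interaction of R55 with hemisphere was 0.29 (SE 0.23, adjusted p = 0.999, limma) for Celsr2, 0.15 (SE 0.25) for Fat3, 0.16 (SE 0.27) for Fat1, 0.14 (SE 0.16) for Celsr3 and -0.086 (SE 0.18) for Dchs1. None of these reached an unadjusted p-value of 0.05, beside 1.24% of genes lower and 0.601% higher, and 0% passed after adjustment. The 324 long genes outside the family had a median interaction of 0.18.

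**Figure D4:**
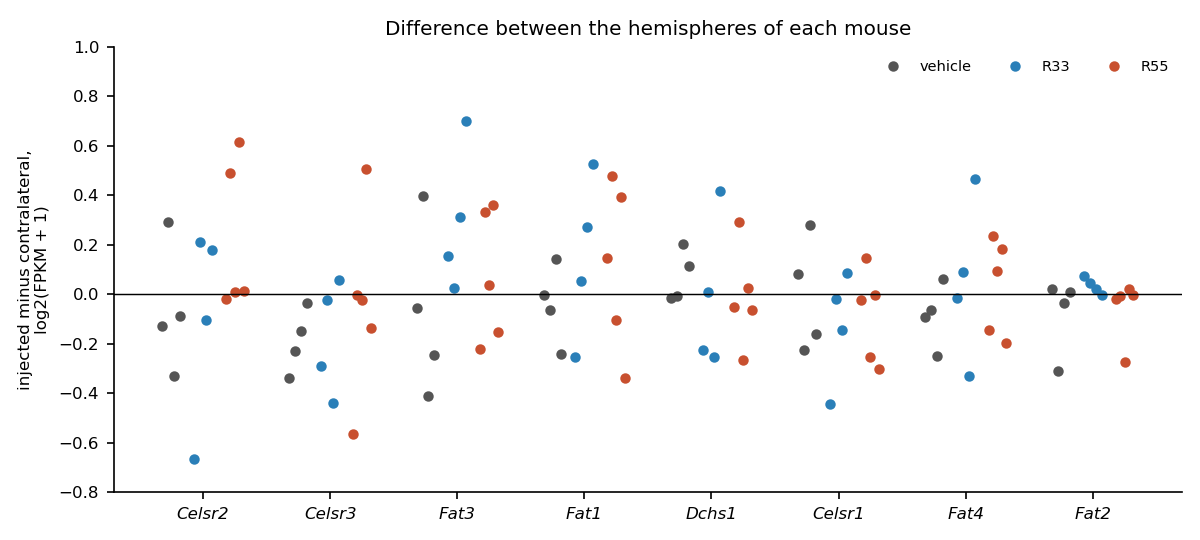
Difference between injected and contralateral libraries of each of 13 mice on the log2(FPKM + 1) scale for the 8 members, coloured by treatment; 0 means equal values. Celsr3 is below 0 in 11 of 13 mice, and the lowest point of Celsr2 (-0.66) is mouse AD.

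Fat2 was low in most libraries and clearly higher in the contralateral libraries of mice J and P. It had 114 fragments (0.298 FPKM) in the contralateral library of vehicle-treated mouse J and 120 fragments (0.323 FPKM) in that of R55-treated mouse P. The injected libraries of R33-treated mouse K (0.119 FPKM) and of mouse P (0.0952 FPKM, 39 fragments) followed. The other 23 libraries had a median of 0.0200 FPKM and at most 0.0843, from 40 fragments in the contralateral library of mouse K. No wide gap therefore sets the 4 highest libraries apart from the rest. The contralateral library of R33-treated mouse N had 0 fragments, which allows up to 0.00585 FPKM (3 fragments, counting error only). Gabra6 and Cbln3, genes of cerebellar granule neurons, and Pcp2, a gene of Purkinje cells, were chosen for comparison after their values were seen. In the 4 libraries with the highest Fat2, Gabra6 ran from 0.594 to 1.78 FPKM, Cbln3 from 0.730 to 2.43 FPKM and Pcp2 from 1.09 to 3.55 FPKM. In the other 23 libraries the medians were 0.0252, 0.142 and 0.266 FPKM, and the highest values were 0.586, 0.721 and 1.44 FPKM. The log2 fold change of Fat2 was -0.0066 (SE 0.047, 95% interval -0.10 to 0.091) for R55 against vehicle.

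**Figure D5:**
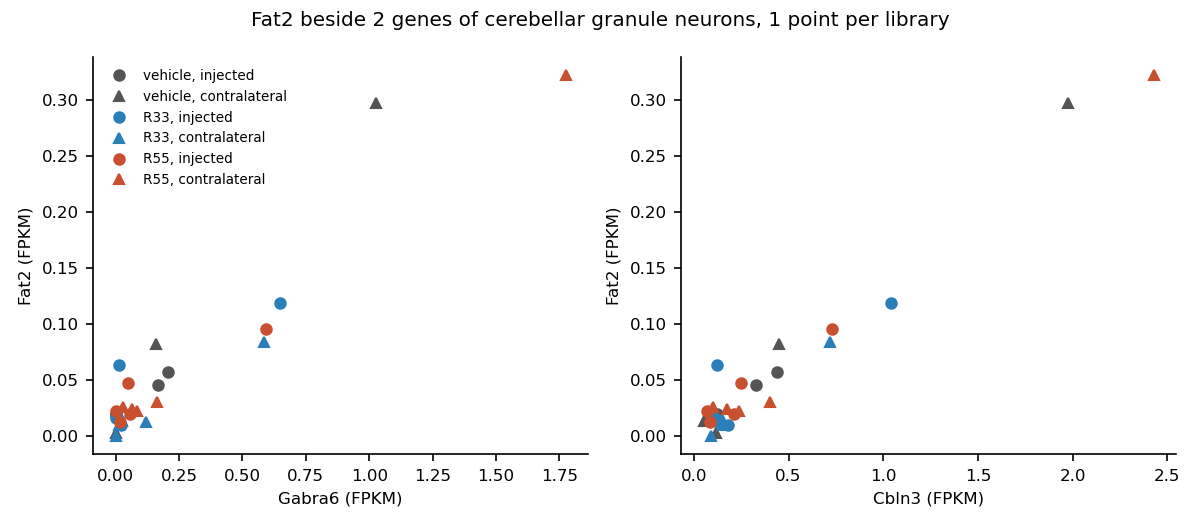
Fat2 against Gabra6 (left) and Cbln3 (right) in FPKM on linear axes, 1 point per library, coloured by treatment with shapes for hemisphere. The contralateral libraries of mice P (0.323 FPKM of Fat2) and J (0.298 FPKM) stand apart at the upper right of both panels.

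Genes that act with the members were counted from lists. Of the planar polarity partners, 21 of 27 in the table were tested, and 13 had fitted values above and 8 below 0 for R55 against vehicle, with a median of 0.017. Of these, 1 gene was lower and 0 higher at an unadjusted p-value under 0.05, and 0 were called after adjustment. Over all tested genes, 39.8% were below 0, and 3.74% were lower and 4.71% higher at that level. Prickle2, a cytoplasmic core polarity protein and the gene with the smallest p, measured 31.9 ± 5.17 FPKM after vehicle and 27.1 ± 2.56 after R55 (log2 fold change -0.23, SE 0.11, adjusted p = 0.586, limma). The Frizzled receptor Fzd3, a partner of Celsr3 in axon guidance, had -0.22 (SE 0.12), which was -0.017 with the length trend removed. The Wnt receptor Ryk had 0.12 (SE 0.070).

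The Fat and Dachsous partners with the Hippo pathway had 30 of 35 genes tested, with a median of -0.028 for R55 against vehicle and 0 called. Of these 30, 21 were below 0, beside 39.8% of all tested genes. At an unadjusted p-value under 0.05, 3 were lower, beside 3.74% of all tested genes lower and 4.71% higher. The 3 with the smallest p were Mpdz, a scaffold of many PDZ domains (-0.18, SE 0.078), the scaffold Dlg5 (-0.22, SE 0.098) and the kinase Taok1 (-0.20, SE 0.090), all with adjusted p-values of at least 0.562 in limma. Taok1 stood at -0.0049 with the length trend removed. Of 5 tested Hippo targets, Ccn1, a secreted matrix protein, was higher at an unadjusted p-value under 0.05 and Crim1 lower. Ccn1 measured 3.13 ± 0.956 FPKM after vehicle and 5.02 ± 2.16 after R55 (0.52, SE 0.19, adjusted p = 0.552, limma), and Crim1 measured 13.4 ± 3.78 and 9.90 ± 2.01 FPKM (-0.38, SE 0.18, adjusted p = 0.586). Lats2, a Hippo kinase, had -0.14 (SE 0.15).

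Other cadherins were counted by class, with no test between classes. All 10 delta protocadherins, which are homophilic adhesion proteins of neurons, had fitted values below 0 for R55 against vehicle, with a median of -0.14, or -0.12 with the length trend removed, and 3 were lower by an unadjusted p-value under 0.05. Of all tested genes, 39.8% were below 0 and 3.74% were lower at that level. These 3 were Pcdh17 (-0.42, SE 0.15, adjusted p = 0.545, limma), Pcdh19 (-0.51, SE 0.19, adjusted p = 0.552) and Pcdh1 (-0.39, SE 0.18, adjusted p = 0.582). For R33 against vehicle all 10 were below 0 as well, beside 42.5% of all tested genes, with a median of -0.15 in comparison with the same vehicle-treated mice. Of 16 tested classical cadherins, 10 were below 0 with a median of -0.059, and Cdh9 (-0.34, SE 0.17), Cdh8 (-0.28, SE 0.15) and Cdh11 (-0.19, SE 0.11) had the smallest p. In the remaining cadherin superfamily, with 4 of 12 genes tested, Clstn2, a calsyntenin of the synapse, had -0.29 (SE 0.098, adjusted p = 0.536, limma) with and without the length trend, and Cdhr1 had -0.29 (SE 0.24) and Clstn1 0.043 (SE 0.11). None of these lists had a called gene.

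Cell markers place the members' values in the tissue. Over all tested genes in R55 against vehicle, 39.8% were below 0. At an unadjusted p-value under 0.05 in limma, 3.74% were lower and 4.71% higher. Neuronal markers, from Nrgn (1931 FPKM on average) down to Gad2 (29.1 FPKM), summed to 4678 to 6284 FPKM in vehicle-treated and 5385 to 6797 in R55-treated mice, and 0 of 10 reached an unadjusted p-value under 0.05 in R55 against vehicle. Oligodendrocyte markers (Mbp to Mog) summed to 1148 to 1824 FPKM after vehicle and 1159 to 1911 after R55, with 6 of 6 above 0 and 0 under an unadjusted p-value of 0.05. Astrocyte markers (Aldoc to Aqp4) summed to 924.7 to 1623 and 1132 to 1738 FPKM, with 7 of 8 above 0 and 1 higher at that level. Markers of oligodendrocyte precursors (Olig1 to Cspg4) summed to 99.2 to 132.5 and 106.1 to 144.2 FPKM, and endothelial markers (Cldn5 to Kdr) to 38.5 to 76.1 and 32.96 to 97.2 FPKM, with 5 of 6 below 0. Those of mural cells and fibroblasts (Rgs5 to Lum) summed to 43.3 to 66.0 and 49.1 to 62.4 FPKM, with 6 of 8 above 0 and 1 higher at that level. Ependymal and choroid plexus markers (Ttr to Kcnj13) varied most, from 17.6 to 582.1 FPKM among vehicle-treated and 11.7 to 119.8 among R55-treated mice, with 6 of 7 below 0 (median log2 fold change -0.40) and 0 under an unadjusted p-value of 0.05, and were at 37.1 FPKM in the injected library of mouse AD. Striatal markers (Penk to Drd2) summed to 39.8 to 99.9 and 47.1 to 63.3 FPKM, with 5 of 6 below 0, and hippocampal markers (C1ql2 to Dsp) to 3.29 to 34.6 and 2.87 to 25.5 FPKM, with 3 of 3 tested below 0. Of red blood cell markers, 4 of 5, Hba-a1 among them, were listed at 0 in every library, and Alas2 averaged 2.56 FPKM. The part of any of these cell types in the members' values was not tested.

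By the pattern over the 14 mice, the genes most like the mean of the 5 tested members were Nf1 (Pearson r = 0.97), Ep400 (0.97), Wdfy3 (0.97), Prrc2c (0.96) and Tpr (0.96). Their lengths run from 7550 (Tpr) to 14277 bp (Wdfy3). With the length trend removed, the genes most like the members were Dgkq (0.84), Tpr (0.84), Nf1 (0.83), Prpf8 (0.81) and Prrc2c (0.81), from 4606 (Dgkq) to 11847 bp (Nf1). These correlations are descriptions over mice of 3 treatments that share libraries and depth.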

How the data were processed

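RNA was measured in cortex of 27 libraries from 14 mice. The authors extracted total RNA, built stranded mRNA libraries, sequenced both ends and aligned with HISAT2 to the GRCm39 assembly, and the FPKM are as deposited by the authors, in 1 table. The counting tool and annotation are not given in the sources used here. A further 5 libraries of the table are not used here. Each value is a whole number of fragments after rescaling (100.0% of values, tolerance 0.01), so fragments and gene lengths were recovered. Libraries held 15932196 to 38077026 fragments, which cover counting error only.

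Genes averaging 1 FPKM or more were fitted as log2(FPKM + 1) with limma 3.58.1 in R 4.3.3 (intensity trend, Benjamini-Hochberg, threshold 0.05). The length trend was removed by lowess (span 0.3). Hemispheres are paired by mouse, and deviations from group means correlated by 0.39 on average within mice (13 pairs) and -0.11 between mice. Since the main fit has no mouse term, its p-values treat libraries of a mouse as separate. The fit was also run on simulated data with independent libraries and no length trend. That run therefore does not cover the likeness of a mouse's hemispheres or the length trend.

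The members and gene lists were chosen with earlier results of these data known. Named genes were the members, the 3 genes of smallest p per list in R55 against vehicle, the highest and lowest marker of each list, and the 5 genes most like the members. The 200-base windows come from GENCODE M39 canonical starts. The result of 1 marker list is not reported here.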

Additional observations from a re-analysis of the deposited data

Results flagged for a closer look

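Of 48 sets of libraries (8 members in 6 groups of treatment and hemisphere), 5 held a library far from the rest by Dixon's criterion. By chance about 1 in 20 sets would. Celsr1 was low in the contralateral library of vehicle-treated mouse L, at 0.692 FPKM against 1.05 to 1.13 in the other vehicle libraries of that side. Celsr2 was low in the injected library of R33-treated mouse AD, at 13.2 FPKM against 26.1 to 28.5 FPKM. Celsr3 was high in the injected library of R33-treated mouse O, at 5.92 FPKM against 3.96 to 4.43 FPKM. Fat2 was high in the contralateral library of R33-treated mouse K, at 0.0843 FPKM against 0 to 0.0129 FPKM, and in that of R55-treated mouse P, at 0.323 FPKM against 0.0222 to 0.0306 FPKM. The causes were not tested.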

How the results depend on the processing

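Of 587 values recomputed under other settings, 561 kept their direction and their side of the threshold or, for values with no test, moved by less than 1 SD between mice. Many could not change direction. The median of the members in R55 against vehicle stayed at -0.36 with the replicate block, with 1 value per mouse or with an R33-treated mouse left out. The 587 also include the counts of called members. This total is therefore no measure of how firm the results are. The count of called members was 0 in every comparison and setting but 1: for R55 against vehicle it ran from 0 to 1 with each mouse left out, and the 1 is Celsr2 without R33-treated mouse AD, in a fit that called 50 of 12976 genes. Without AD and without the filter, 0 of 8 members were called. The median of the members in R55 against vehicle, -0.36 over 5 genes, was -0.20 over 8 genes with no filter, -0.20 with no filter and 1 value per mouse, -0.20 with no filter in the injected hemisphere, -0.13 with the length trend removed (the same with the replicate block or 1 value per mouse) and -0.056 with the length trend removed and no filter. For R33 it was -0.064 with the length trend removed and -0.065 with no filter in addition. With each mouse left out, the median ran from -0.38 to -0.29 for R55 and from -0.31 to -0.17 for R33 against vehicle. With the length trend removed, signs turned for R55 against vehicle in Celsr1 (0.042, no filter), Celsr3 (0.055, also with the replicate block and with 1 value per mouse, and 0.0065 with no filter), Dchs1 (0.0056 in all 3) and Fat2 (0.16, no filter). The deposited values of Fat2 are close to 0 on the log2(FPKM + 1) scale. Its value with the trend removed therefore mostly shows the trend that was subtracted. Fat2 also turned in the injected hemisphere alone (0.0050) and ran from -0.053 to 0.037 with each mouse left out. The mouse as a replicate block, paired by animal, changed no call of a member (Fat3: -0.47, adjusted p = 0.900). limma voom on recovered fragments, genes of at least 10 fragments, the 1-letter mice, and settings that join 2 choices were added after seeing the data.

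Depth limits Fat2 to descriptions, and 4 vehicle-treated mice limit every comparison.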
